A study of Mus musculus with 12 samples.

Results

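The DNA level of 4 genes that encode inhibitors of cyclin-dependent kinases, Cdkn2a, Cdkn2b, Cdkn2c and Cdkn1a, was examined in tumours of 12 mice. The genes were chosen by symbol, and the probes whose gene name on the array was one of these symbols were read. Of the 4 genes, 3 had a probe by that name, out of 20294 autosomal genes named on the array: Cdkn2a had 2 probes, Cdkn2c had 1, Cdkn1a had 1 and Cdkn2b had 0. The question was whether, in each tumour, a loss at the gene was confined to the gene's neighbourhood, was deeper than that of its chromosome, or was part of a loss of the chromosome.

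The series compared tumour DNA with normal kidney DNA of C57BL/6 mice by array comparative genomic hybridisation on Agilent mouse genome arrays of 170305 probes. The tumours came from male C57BL/6 mice with a knockout of Mutyh or with wild-type Mutyh. Mutyh encodes a base excision repair enzyme that takes out an adenine paired with an oxidised guanine. The treated mice were injected intraperitoneally with ferric nitrilotriacetate (Fe-NTA), a compound of iron that damages the kidney through oxidation. They received 5 injections a week for 12 weeks. The dose was 3 mg of iron per kg of body weight during week 1 and 5 mg during the 11 weeks that followed, and the mice were killed at about 120 weeks. The treated groups each began with 20 mice. The groups were 3 renal cell carcinomas of treated knockouts (KO1080, KO1097 and KO1134), 1 renal cell carcinoma of a treated wild type (WT1179), 2 malignant lymphomas of treated knockouts (KO1077 and KO1111), 3 malignant lymphomas of treated wild types (WT1113, WT1114 and WT1121), 1 spontaneous lymphoma of an untreated knockout (KO1414) and 2 spontaneous lymphomas of untreated wild types (WT1405 and WT1420). The number in each name is the animal's. The labels do not state which part of Mutyh was removed, or the share of tumour cells in each sample.

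Cyclin-dependent kinases drive cells through the division cycle by phosphorylating the retinoblastoma protein, and inhibitors of 2 families hold them back. The INK4 family binds Cdk4 and Cdk6 and includes p16, p15 and p18, encoded by Cdkn2a, Cdkn2b and Cdkn2c. Cdkn2a also encodes p19Arf, which restrains Mdm2 and so stabilises p53, and it is adjacent to Cdkn2b on mouse chromosome 4. Cdkn1a, on chromosome 17, encodes p21 of the Cip/Kip family, a target of p53 that binds several cyclin and kinase pairs. Deletion of Cdkn2a is a frequent event in human tumours and in rodent tumours of several tissues.

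Every value below for these genes rests on the following 4 probes, shown because no other probe on the array carried a member's name. Positions are on mouse build mm9. The sequences are written in lower case as the scanner files list them, and no base is marked.
Cdkn2a, chr4:88927265-88927324: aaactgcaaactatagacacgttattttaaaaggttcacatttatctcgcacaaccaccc
Cdkn2a, chr4:88936288-88936347: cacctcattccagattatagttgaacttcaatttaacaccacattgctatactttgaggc
Cdkn2c, chr4:109337362-109337421: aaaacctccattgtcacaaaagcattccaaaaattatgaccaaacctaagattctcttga
Cdkn1a, chr17:29235110-29235166: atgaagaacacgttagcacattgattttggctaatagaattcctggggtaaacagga
The Cdkn2a and Cdkn2c probes are 60 bases long and the Cdkn1a probe 57. The share of G and C was 36.7% in each Cdkn2a probe, 33.3% in the Cdkn2c probe and 38.6% in the Cdkn1a probe. Whether a probe lies in an exon or an intron was not analysed here, since no mm9 annotation was used.

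The value of a probe is the log2 ratio of tumour to reference signal, centred so that 0 is the most common level of the autosomes of that array. A negative value means less tumour DNA. All 48 member spots on the 12 arrays were above background in both channels and none was saturated. The SD of single-probe noise was between 0.12 and 0.17 on the 12 arrays. All 4 carcinomas were hybridised on 1 slide and the 8 lymphomas on the other 2 slides, so tumour type and slide cannot be told apart. As a check of the genotype labels, 1 of the 2 Mutyh probes, at chr4:116490496-116490555, lay between -3.22 and -2.40 in the 6 knockout tumours and between -0.76 and 0.14 in the 6 wild-type tumours. The other, at chr4:116480656-116480715, did not separate them, lying between -0.57 and 0.27 in knockouts and between -0.83 and 0.20 in wild types. A focal loss at the immunoglobulin heavy chain locus, which B cells rearrange, was called in 0 of 4 carcinomas and in 7 of 8 lymphomas. No light chain or T cell receptor locus is reported here, and the lineage of the lymphomas was not assigned.

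Cdkn2a was lower in every carcinoma than in every lymphoma. The mean of its probes was -0.44 for KO1080, -0.67 for KO1097, -0.27 for KO1134 and -0.81 for WT1179. In the lymphomas it was between -0.15 in KO1077 and 0.15 in KO1414, with a median of -0.02. On the linear scale the carcinomas held 0.738, 0.629, 0.831 and 0.570 of the reference level. The means were -0.55 ± 0.24 in carcinomas and -0.01 ± 0.12 in lymphomas (SD, n = 4 and n = 8). The difference adjusted for genotype and treatment was -0.49 ± 0.10 (SE), past the threshold (adjusted p = 0.00387, limma with Benjamini-Hochberg adjustment over all genes). In that comparison 12.1% of 20281 genes were called lower in carcinomas, and on chromosome 4 the share was 90.4% of 1383 genes. Without WT1179 the difference was -0.35 (limma adjusted p = 0.0450), the highest p among the alternatives, the lowest being 0.000558 without KO1134. A bulk DNA level does not separate the share of cells that carry a loss from the number of copies each cell lost.

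The mean of the Cdkn2a probes lay within 0.04 of the probes around them in each carcinoma. The local level, the median of the 115 other probes in chr4:88000000-90000000, was -0.42 for KO1080, -0.67 for KO1097, -0.29 for KO1134 and -0.78 for WT1179. The gene differed from it by -0.02, -0.00, 0.03 and -0.03 in the same carcinomas, against an SE of 0.08 to 0.09 from probe noise. The corresponding differences in lymphomas ranged from -0.14 to 0.15, with an SE of 0.09 to 0.12. All 12 differences were smaller than the 0.25 that was required, so 0 of 4 carcinomas and 0 of 8 lymphomas had a loss at Cdkn2a deeper than its surroundings. For scale, the gene lay at least 0.25 below its surroundings in 1.5% of all pairs of a gene and a carcinoma. The share was 1.15% of all pairs of a gene and a lymphoma.

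The surroundings of Cdkn2a in turn lay within 0.03 of the chromosome in each carcinoma. The chromosome 4 level was -0.43 for KO1080, -0.67 for KO1097, -0.30 for KO1134 and -0.75 for WT1179, leaving out an interval of 13 Mb around Mutyh, where the knockout tumours carry their own low stretch. The local level minus the chromosome level was 0.01, 0.00, 0.01 and -0.03 in these carcinomas. In lymphomas it was between -0.01 and 0.04, with a median of 0.02. Its difference between carcinomas and lymphomas was -0.02 ± 0.02 (limma adjusted p = 0.501). No gene passed this last comparison (0.0% of 20292 genes called lower, and also 0 called higher), though 2464 genes had an unadjusted limma p under 0.05. The gene's own level minus the chromosome differed by 0.04 ± 0.05 between carcinomas and lymphomas (limma adjusted p = 0.633). By that measure 2.94% of 20281 genes were called lower in carcinomas.

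**Figure D1:**
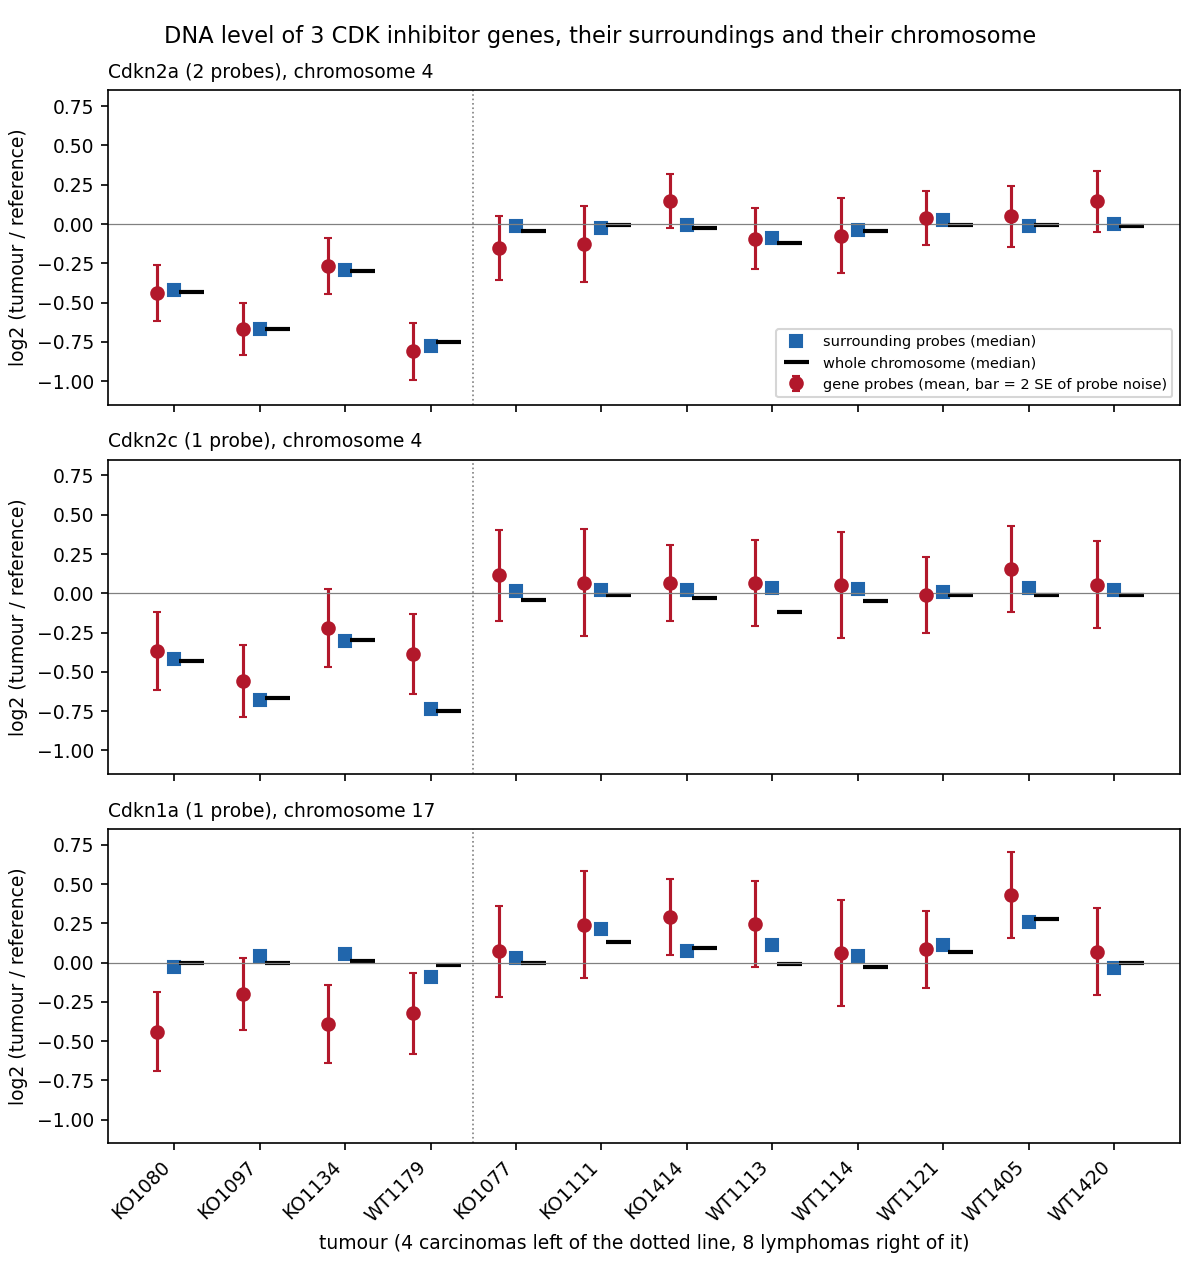
The log2 ratio of tumour to reference DNA (vertical axes) in the 12 tumours (horizontal axis, 4 carcinomas left of the dotted line and 8 lymphomas right of it) for Cdkn2a, Cdkn2c and Cdkn1a. Circles are the gene's probes with bars of 2 SE from probe noise, squares the surrounding probes and dashes the whole chromosome; the 3 marks nearly coincide for Cdkn2a in carcinomas, while the Cdkn1a circle lies below its square in all 4.

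Each carcinoma had lost chromosome 4 over nearly all of its length. Segmentation placed Cdkn2a in a stretch of 85.8 Mb in KO1080, of 36.4 Mb in KO1097 and in KO1134, and of 108 Mb in WT1179, each far above the 10 Mb that was taken as the upper limit of a focal loss. The segments that hold the gene had means of -0.42, -0.67, -0.31 and -0.73. In KO1080 and KO1097 the loss ran from the first probe of chromosome 4, at 3159538, to the last, ending at 155629081. KO1134 kept the start of the chromosome, chr4:3159538-5191253, at -0.02 over 97 probes, and WT1179 kept chr4:3159538-6293594 at -0.01 over 179 probes. The edge of the lost part lay 83.7 Mb from Cdkn2a in KO1134 and 82.6 Mb in WT1179. No stretch of at least 5 probes after the gene was above the threshold of -0.25 in any carcinoma, leaving out the interval around Mutyh. The lost segments counted below had at least 5 probes each, and the positions of the highest and lowest are not given here. The highest of the lost segments had a mean of -0.42 for KO1080, -0.62 for KO1097, -0.28 for KO1134 and -0.72 for WT1179. The lowest, leaving out segments inside that interval, had a mean of -1.38 for KO1080, -1.56 for KO1097, -1.26 for KO1134 and -0.74 for WT1179.

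**Figure D2:**
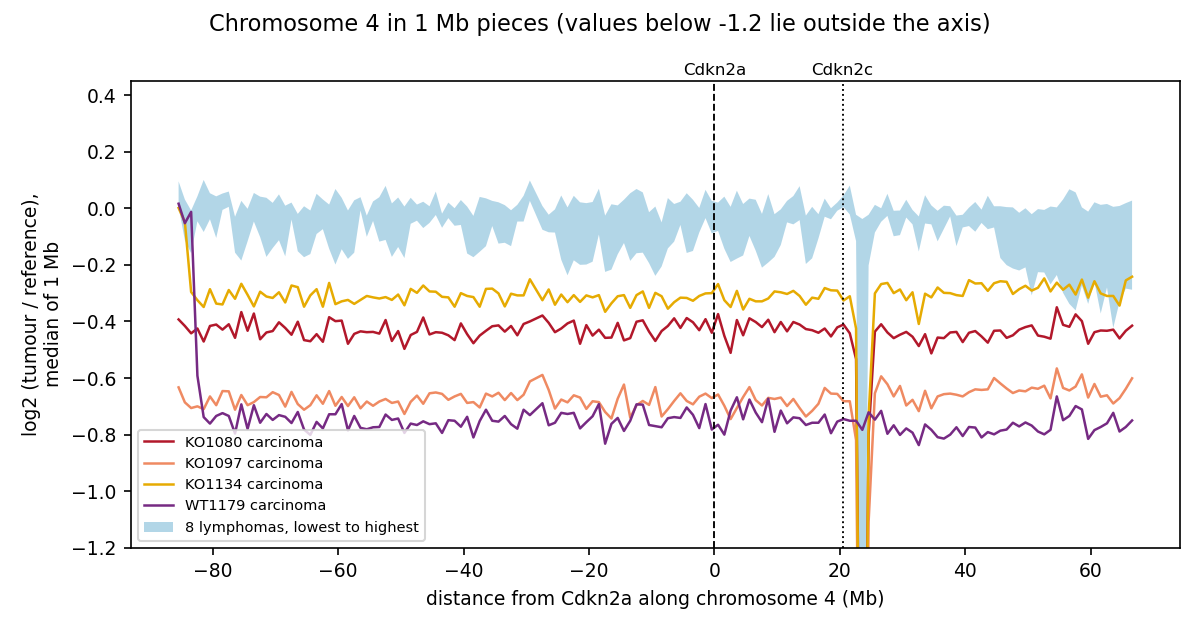
Median log2 ratio of tumour to reference DNA in 1 Mb pieces of chromosome 4 (vertical axis) against the distance from Cdkn2a in Mb (horizontal axis). Lines are the 4 carcinomas and the band runs from the lowest to the highest of the 8 lymphomas; the carcinoma lines are flat through Cdkn2a and Cdkn2c, and KO1134 and WT1179 return to 0 only at the start of the chromosome.

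Chromosome 4 was cut into 71 pieces of 2 Mb, leaving out the interval around Mutyh. Ordered from the lowest level, the piece that holds Cdkn2a ranked 49 for KO1080, 42 for KO1097, 51 for KO1134 and 11 for WT1179. The pieces of one carcinoma varied with an SD of 0.02 for KO1080, 0.03 for KO1097, 0.04 for KO1134 and 0.13 for WT1179, where the kept start of the chromosome is included. In KO1080 and KO1097 all 71 pieces were at or below -0.25, and in KO1134 and WT1179 it was 69 pieces. Chromosome 4 was the lowest of the 19 autosomes in KO1080, KO1134 and WT1179, and the second lowest in KO1097, after chromosome 13 at -0.67. Chromosome 12 lay at -0.42, -0.65, -0.24 and -0.74 in KO1080, KO1097, KO1134 and WT1179, so the carcinomas had the same order on both chromosomes. In KO1134 chromosomes 3 and 8 lay at -0.30 like chromosome 4, chromosome 10 at -0.29 and chromosome 9 at -0.28.

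In lymphomas, chromosome 4 was near 0 at Cdkn2a. Outside the interval around Mutyh, the lower stretches of 2 lymphomas lay elsewhere on chromosome 4. The Cdkn2a piece ranged from -0.09 in WT1113 to 0.02 in WT1121. In WT1113 the stretch chr4:141814047-155629081 had a mean of -0.29, 52.9 Mb beyond Cdkn2a. In KO1077 chr4:133720794-155629081 had a mean of -0.18. The lowest stretches of the other 6 lymphomas had means between -0.07 and -0.01, leaving out segments that lay wholly inside that interval. Those of WT1114, WT1121 and WT1405 ran across the interval, and those of WT1114 and WT1121 also held Cdkn2a. In KO1111 the lowest stretch began inside the interval, at 116500752. Inside the interval around Mutyh, the 1 Mb piece 23.6 Mb from Cdkn2a had a median of -2.30 in KO1077, -2.21 in KO1111 and -2.69 in KO1414. In the wild-type lymphomas that piece lay between -0.15 and -0.04.

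Within the 2 Mb around Cdkn2a nearly every probe was low in the carcinomas. Probes below 0 made up 99.1% of 117 probes in KO1080 and 100% in KO1097, KO1134 and WT1179. In the lymphomas the share was between 40.2% and 73.5%. Cut into 10 pieces of 200 kb, the window had levels from -0.55 to -0.31 in KO1080, from -0.76 to -0.61 in KO1097, from -0.36 to -0.24 in KO1134 and from -0.92 to -0.65 in WT1179. Of the 115 other probes, 99 were lower in every carcinoma than in every lymphoma, and 36 had a difference of means at least as low as that of the lower Cdkn2a probe. All 18 other names in the window had a negative mean in carcinomas, from -0.70 for AK148321 to -0.30 for ENSMUST00000139272, and 17 of them were lower in every carcinoma than in every lymphoma, as were 10.5% of all genes. The function of these transcripts is not annotated in the tables used here.

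A single probe of AK148321 was far lower than the others in all 4 carcinomas. It lies 145 kb from the middle of the Cdkn2a probes and was singled out after its values were seen. Its sequence is printed because it is the lowest point of the window.
AK148321, chr4:89076458-89076517: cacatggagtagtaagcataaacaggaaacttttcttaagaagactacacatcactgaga
It read -1.51 for KO1080, -2.03 for KO1097, -1.90 for KO1134 and -2.10 for WT1179. In lymphomas it was between -0.36 and -0.03. The other 8 probes of AK148321 averaged -0.55 ± 0.22 in carcinomas and -0.03 ± 0.04 in lymphomas (SD, n = 4 and n = 8), close to the chromosome. Of 161460 autosomal probes, 40 lay at least 1 below their chromosome in every carcinoma, 3 of them on chromosome 4 outside the interval around Mutyh. Its reference signal, relative to each array's median, differed by -0.46 (log2, carcinoma arrays minus lymphoma arrays), and 2.47% of probes had a lower difference. The part of that shift in its ratio was not tested. At or below -1 in this window there was 1 probe in KO1080, KO1097 and KO1134 and there were 7 in WT1179.

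**Figure D3:**
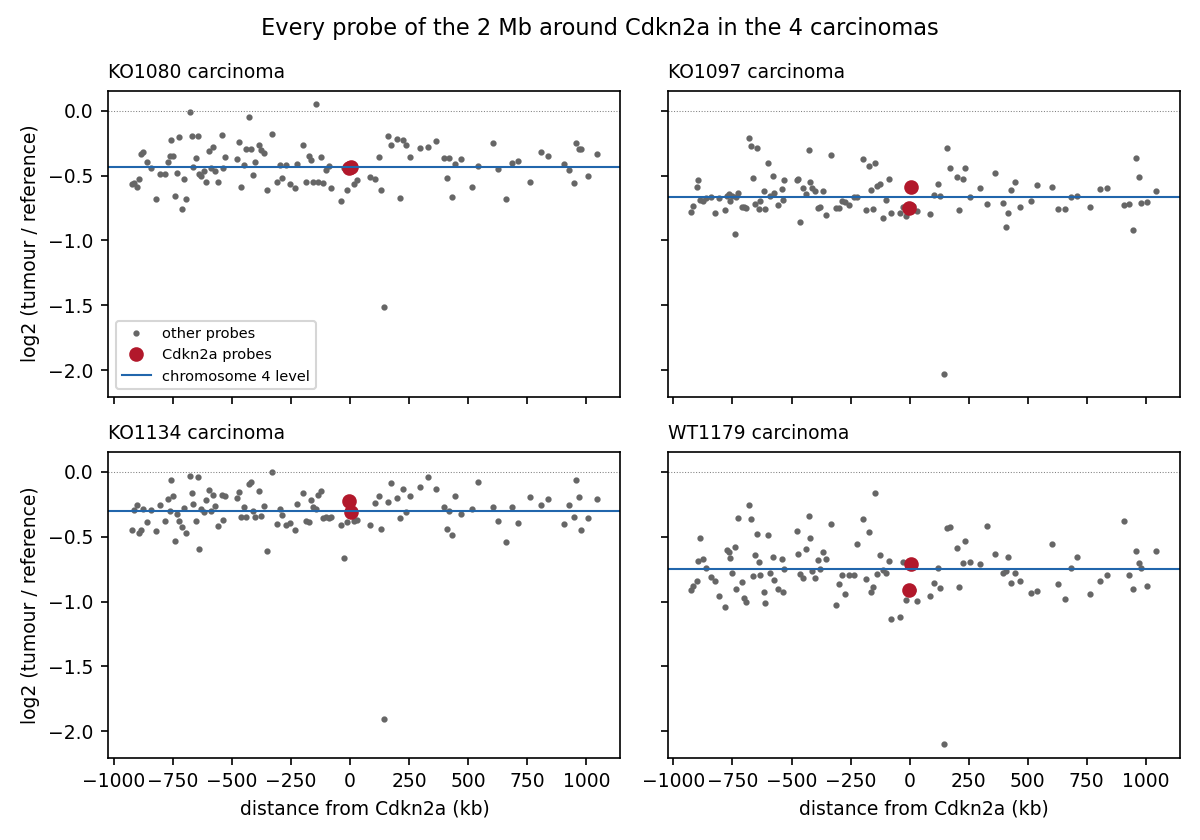
Log2 ratio of tumour to reference DNA (vertical axes) of each probe in the 2 Mb around Cdkn2a, by distance in kb (horizontal axes), in the 4 carcinomas. Large circles are the 2 Cdkn2a probes and the line is the level of chromosome 4; apart from 1 probe of AK148321 between -1.51 and -2.10, the points scatter around that line.

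The 2 Cdkn2a probes gave similar answers in carcinomas. The probe at 88927265 read -0.44 for KO1080, -0.75 for KO1097, -0.22 for KO1134 and -0.91 for WT1179. The probe at 88936288 read -0.43, -0.59, -0.31 and -0.71 in the same order. In lymphomas the first ranged from -0.28 to 0.16 and the second from -0.03 to 0.22. Both were lower in each carcinoma than the lymphoma median, but the first overlapped, since the lymphomas KO1077 at -0.28, KO1111 at -0.24 and WT1114 at -0.23 lay below the carcinoma KO1134 at -0.22.

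Cdkn2b, which encodes p15, could be judged from its surroundings only. No probe bore its name. In RefSeq (GRCm38.p6, another build, used here for gene order alone) the protein-coding neighbours of Cdkn2b on chromosome 4 are Cdkn2a and Dmrta1. The 4 nearest probes on the AK148321 side of Cdkn2a, 10.2 to 98.9 kb from it, averaged between -0.67 and -0.57 in carcinomas and between -0.15 and 0.04 in lymphomas. The 4 nearest probes on the other side, 9.77 to 74.9 kb away, averaged between -0.75 and -0.64 in carcinomas and between -0.15 and 0.07 in lymphomas. All 8 were low in the carcinomas to a degree like that of Cdkn2a itself.

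Cdkn2c, which encodes p18 and lies on the same chromosome, was also lower in every carcinoma than in every lymphoma. Its probe read -0.37 for KO1080, -0.56 for KO1097, -0.22 for KO1134 and -0.39 for WT1179. In lymphomas it read between -0.01 in WT1121 and 0.15 in WT1405, with a median of 0.07. The means were -0.38 ± 0.14 in carcinomas and 0.07 ± 0.05 in lymphomas (SD, n = 4 and n = 8), and the adjusted difference was -0.45 ± 0.07 (SE; limma adjusted p = 0.000764). Against its 85 surrounding probes, at -0.42, -0.68, -0.30 and -0.74, the gene was higher in each carcinoma, by 0.05, 0.12, 0.08 and 0.35. The last difference, in WT1179, exceeded 2 SE (0.26) of probe noise, and the other 3 did not. In WT1179 the 85 surrounding probes had an SD of 0.255, wider than the SE of 0.128 from probe noise. By that spread the Cdkn2c probe does not stand apart from single probes around it. The lymphoma probe differed from its surroundings by -0.02 to 0.12.

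The neighbourhood of Cdkn2c lay within 0.02 of the chromosome in the carcinomas. The local level minus the chromosome was 0.01 for KO1080, -0.01 for KO1097, -0.00 for KO1134 and 0.01 for WT1179. In lymphomas it was 0.02 to 0.16. The difference between the types was -0.06 ± 0.03 (limma adjusted p = 0.388), and that of the gene minus its chromosome was 0.08 ± 0.06 (limma adjusted p = 0.435). In the 3 knockout carcinomas the segment with Cdkn2c was short, 5.54 Mb in KO1080 and 3.86 Mb in KO1097 and KO1134, and it ended at 111696213, next to the low stretch that the knockout tumours share. Its means, -0.44, -0.68 and -0.32, were within 0.25 of the chromosome level, so no focal loss was called. The knockout lymphoma KO1414 also had Cdkn2c in a short segment, of 3.74 Mb with a mean of 0.02. Of the 13 other names in the window, ENSMUST00000141893 was lowest, with 1 probe at -1.26 ± 0.64 in carcinomas and -0.11 ± 0.12 in lymphomas, and Dmrta2, a transcription factor gene, was highest, with 1 probe at 0.20 ± 0.12 in carcinomas and -0.15 ± 0.10 in lymphomas (SD, n = 4 and n = 8).

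The Cdkn1a probe gave a low ratio in the carcinomas while chromosome 17 was near 0, but its signal for the reference DNA also differed between the slides. That reference signal was 614 to 696 on the carcinoma arrays and 1625 to 1885 on the lymphoma arrays. Relative to each array's median, carcinoma arrays minus lymphoma arrays gave -1.42 on the log2 scale, and 0.173% of 161459 autosomal probes had a lower difference. For the 2 Cdkn2a probes and the Cdkn2c probe the same difference was 0.15, -0.02 and -0.18, and its median over the other probes around Cdkn1a was 0.02. The reference was normal kidney DNA in both sets of arrays, but whether it was 1 preparation is not shown by the values used here. The ratios of this probe compare arrays on which its reference signal was not alike. The part of the reference signal in the difference below was not tested. The tumour signal of this probe was also lower on the carcinoma arrays, at 489 to 607, against 1795 to 2163 on the lymphoma arrays. The log2 ratio was -0.44 for KO1080, -0.20 for KO1097, -0.39 for KO1134 and -0.32 for WT1179. In lymphomas it was between 0.06 in WT1114 and 0.43 in WT1405, with a median of 0.16. No carcinoma overlapped a lymphoma. The adjusted difference was -0.48 ± 0.09 (SE; limma adjusted p = 0.00169), and relative to chromosome 17 it was -0.44 ± 0.06 (limma adjusted p = 0.00611). The means relative to chromosome 17 were -0.34 ± 0.10 in carcinomas and 0.12 ± 0.08 in lymphomas (SD, n = 4 and n = 8). Among genes read by 1 probe, as Cdkn1a was, 3.53% of 7780 were called lower in carcinomas relative to their chromosome.

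The 105 probes around Cdkn1a were near 0 in the carcinomas. The local level was -0.03, 0.04, 0.05 and -0.09 in KO1080, KO1097, KO1134 and WT1179, and between -0.04 and 0.26 in lymphomas. The chromosome 17 level was between -0.01 and 0.01 in the carcinomas, and in lymphomas it was highest in WT1405, at 0.28. The probe lay 0.41 below its surroundings in KO1080 and 0.44 in KO1134, where the rule for a loss deeper than the surroundings was met. It lay 0.24 below them in KO1097 and 0.23 in WT1179, where the rule was not met. That is 2 of 4 carcinomas and 0 of 8 lymphomas. For scale, the gene lay at least 0.25 below its surroundings in 2.97% of pairs of a 1-probe gene and a carcinoma. The carcinoma count was 4 with a 250 kb window or with probes centred on the lymphomas. Centring on the lymphomas subtracts each probe's lymphoma median, so it carries this probe's difference between slides into the carcinoma values. The count was 1 without KO1080 or without KO1134, which follows from leaving out a tumour that met the rule. The lowest segment of at least 5 probes on chromosome 17 of a carcinoma was at -0.01, so no focal loss was called.

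The neighbouring probes of Cdkn1a showed smaller differences. The nearest before it, at 9.24 kb, averaged -0.14 ± 0.11 in carcinomas and 0.11 ± 0.22 in lymphomas. The nearest after it, at 19.5 kb and named ENSMUST00000141797, averaged -0.12 ± 0.17 in carcinomas and 0.09 ± 0.14 in lymphomas (SD, n = 4 and n = 8). Both groups overlapped at each of these probes. Over the 105 probes the median difference was -0.10, and 1 of them, in Pnpla1, a lipid acyltransferase gene, had a lower difference than Cdkn1a. The Cdkn1a values rest on a single probe of 57 bases. Of the 27 other names in the window, Tmem217 was lowest, at -0.12 ± 0.09 in carcinomas and 0.06 ± 0.12 in lymphomas, and Ppil1, a prolyl isomerase gene, was highest, at 0.14 ± 0.03 in carcinomas and 0.08 ± 0.13 in lymphomas (SD, n = 4 and n = 8).

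**Figure D4:**
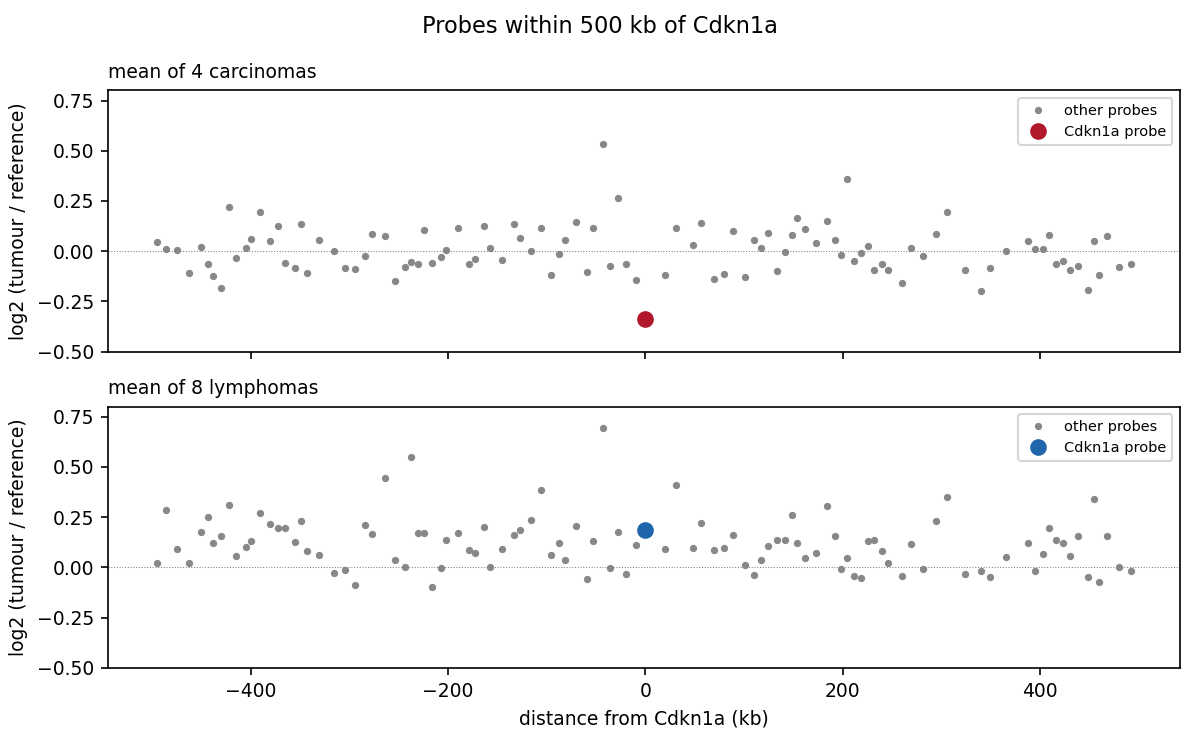
Mean log2 ratio of tumour to reference DNA (vertical axes) of each probe within 500 kb of Cdkn1a, by distance in kb (horizontal axis), in 4 carcinomas (top) and 8 lymphomas (bottom). The large circle is the Cdkn1a probe, at -0.34 in carcinomas, where it is the lowest point, and at 0.19 in lymphomas; its reference signal was 614 to 696 on the carcinoma arrays and 1625 to 1885 on the lymphoma arrays.

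No member passed the comparison of genotypes. Knockout minus wild-type tumours, adjusted for tumour type and treatment, differed by 0.07 ± 0.09 for Cdkn2a (limma adjusted p = 0.893), 0.02 ± 0.06 for Cdkn2c (limma adjusted p = 0.963) and 0.02 ± 0.08 for Cdkn1a (limma adjusted p = 0.973). In that comparison 0.0542% of 20281 genes were called lower in knockouts. Because Cdkn2c lies near the low stretch of the knockout tumours, its surroundings were compared as well. The local level minus the chromosome averaged 0.02 ± 0.03 in knockouts and 0.06 ± 0.05 in wild types (SD, n = 6 each), an adjusted difference of -0.02 ± 0.02 (limma adjusted p = 0.820), against 0.0641% of 20292 genes called lower. Within the slide of carcinomas Cdkn2c averaged -0.38 ± 0.17 in 3 knockouts and was -0.39 in 1 wild type. Within the second slide it averaged 0.09 ± 0.03 in 2 knockouts and 0.06 ± 0.01 in 2 wild types, and within the third it was 0.07 in 1 knockout and averaged 0.07 ± 0.08 in 3 wild types (SD).

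The single wild-type carcinoma had the lowest Cdkn2a of all 12 tumours. Cdkn2a averaged -0.46 ± 0.20 in the 3 knockout carcinomas (SD) and was -0.81 in WT1179. In lymphomas it averaged -0.04 ± 0.17 in 3 knockouts and 0.01 ± 0.10 in 5 wild types (SD). The genotype effect in carcinomas minus that in lymphomas was 0.40 ± 0.16 (limma adjusted p = 0.328), and with 1 wild-type carcinoma it has no spread of its own in that group. By treatment, which all carcinomas received, Cdkn2a averaged -0.08 ± 0.07 in 5 treated lymphomas and 0.11 ± 0.06 in 3 untreated ones, and its surroundings -0.03 ± 0.04 and -0.01 ± 0.01 in the same groups (SD). These values were not tested. All 3 untreated lymphomas were on the third slide and 4 of the 5 treated ones on the second.

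Other genes of the same pathway were read from a list of 36 cyclins, kinases, retinoblastoma and E2F family members, p53 regulators and other inhibitors, of which 29 were on the array. Between carcinomas and lymphomas 3 of the 29 genes (10.3%) were called lower, near the 12.1% of all genes, 0 were called higher and 26 did not pass. The median difference of the 29 genes was -0.11, and that of all genes was -0.08. All 3 lay on chromosomes 4 and 12, which hold 4 genes of the list. The other, Ccne2, which encodes cyclin E2, averaged -0.13 ± 0.10 in carcinomas and 0.15 ± 0.21 in lymphomas (SD, n = 4 and n = 8) over 1 probe on chromosome 4 and did not pass (limma adjusted p = 0.268). E2f6, a repressor of the E2F family on chromosome 12, averaged -0.52 ± 0.20 in carcinomas and 0.12 ± 0.07 in lymphomas, with an adjusted difference of -0.67 (limma adjusted p = 0.000302). E2f2, an activator on chromosome 4, averaged -0.69 ± 0.26 in carcinomas and -0.12 ± 0.11 in lymphomas, with a difference of -0.59 (limma adjusted p = 0.00271). Trp73, a p53 relative on chromosome 4, averaged -0.46 ± 0.20 in carcinomas and -0.10 ± 0.10 in lymphomas, with a difference of -0.35 (limma adjusted p = 0.0195; SD, n = 4 and n = 8 in each case).

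Cdk7, the kinase that activates other cyclin-dependent kinases, had the third lowest difference of the list, -0.40, and did not pass (limma adjusted p = 0.102). The highest were 0.12 for Ccnd1, which encodes cyclin D1 (limma adjusted p = 0.209), and 0.09 for Ccnd2, which encodes cyclin D2 (limma adjusted p = 0.655). Relative to its own chromosome, 1 of the 29 genes (3.45%) was called higher, Trp73, and 0 were called lower, against 3.05% called higher and 2.94% called lower among all genes. The median of that measure was -0.04 for the list and -0.01 for all genes.

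The genes most like Cdkn2a across the 12 tumours lay on chromosomes 4 and 12. Likeness was Pearson's r over the 12 tumours, among genes with at least 2 probes outside the window, and since the tumours fall into carcinomas and lymphomas it mostly measures that split. The highest were BC024416 and AK147018 on chromosome 12, at 0.99 each, Gabrr1 on chromosome 4, 55.7 Mb away, at 0.99, ENSMUST00000145395 on chromosome 4, 29.7 Mb away, at 0.99, and 4921506M07Rik on chromosome 12, at 0.99. The 3 on chromosome 12 were also the highest outside chromosome 4. For Cdkn2c they were Nin on chromosome 12 and Usp24 on chromosome 4, at 0.98 each, and Ipp on chromosome 4, at 0.97. For Cdkn1a they were Meig1 on chromosome 2, at 0.94, Shmt1 on chromosome 11, at 0.92, and Eci1 on chromosome 17, at 0.92. Among the members r was 0.89 for Cdkn2a and Cdkn2c, 0.75 for Cdkn2a and Cdkn1a, and 0.84 for Cdkn2c and Cdkn1a.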

How the data were processed

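DNA of 12 tumours was read on 12 arrays, each with 1 tumour labelled with Cy5 and the reference, normal kidney DNA, labelled with Cy3. Per the file headers, Agilent Feature Extraction 10.7.1.1 (protocol CGH_107_Sep09, build mm9) made the deposited intensity values, background-subtracted and dye-normalized processed signals, and a log10 ratio of red over green. The deposited series-wide table holds log2 ratios that follow the same values (r of at least 0.999943 on each array); what was done to centre it is not given in the sources used here.

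Log2 ratios of the processed signals were taken, flagged outlier spots left out (116 to 298 per array), spots of a probe averaged, and each array centred on its autosomal mode (running median over 25 probes, bandwidth 0.03). Gene levels are probe means, local levels medians of other probes within 500 kb (2 Mb for Cdkn2a), and chromosome levels medians without the window. Segments came from penalised least squares (penalty 10 times the log of the probe number times the noise variance). A loss was focal at no more than 10 Mb, at least 5 probes and 0.25 below the chromosome; a gene was deeper than its surroundings at 0.25 and 2 SE. Differences were tested over all genes with limma 3.58.1 (R 4.3.3) in 1 model of tumour type, genotype and treatment, with Benjamini-Hochberg adjustment and a threshold of 0.05. Reference signals alone were compared as log2 values minus each array's median. Other steps used Python 3.11.15. Segmentation and the model were tested on simulated data. Each array is 1 tumour of 1 animal. About 99.9% of spots were above background in both channels; precision is limited by how few arrays there are.

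Members, windows and the pathway list were chosen with earlier results of these data known. Named genes were the members, those of lowest and highest carcinoma mean in each window, the 4 lowest and 2 highest differences of the list, and the most alike genes by r.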

Additional observations from a re-analysis of the deposited data

Results flagged for a closer look

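Of 18 sets of member values examined for a sample far from its group, 1 held such a sample; chance gives about 1 in 20. The local level around Cdkn2c minus chromosome 4 was 0.16 in the lymphoma WT1113, against 0.02 to 0.07 in the other 7 lymphomas. The gap to the nearest lymphoma was 0.596 of the group's range, where 0.526 is the critical value for 8 samples. Chromosome 4 of WT1113 was divided into 10 segments, with the Cdkn2c segment at -0.03 and the last segment at -0.29. The part of those segments in the value was not tested.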

How the results depend on the processing

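The Cdkn2a difference between carcinomas and lymphomas stayed past the threshold under all 22 alternatives, from -0.62 to -0.35 (limma adjusted p or exact permutation p 0.000558 to 0.0450). Cdkn2c and Cdkn1a stayed past it under all 21 each, and Cdkn1a relative to its chromosome under all 25, none of which changes its differing reference signal. Results that had not passed also turned sign: Cdkn2a minus its chromosome was -0.0347 with normexp background correction and -0.0342 with tumour type as the only term and in the two-sided exact permutation test (p = 0.558); Cdkn2c between genotypes was -0.14 with genotype as the only term, and -0.0036 (without KO1134) to 0.0408 when single tumours were left out; its local level minus the chromosome was 0.0056 with a 1 Mb window. The exact test's smallest p was 0.00202. Counts of 0 at Cdkn2a stayed 0 under all alternatives. Carcinomas with Cdkn2a lost with its chromosome numbered 3 in place of 4 with median centring or a threshold of 0.4. Carcinomas with Cdkn1a deeper than its surroundings numbered 4 with a 250 kb window or probes centred on lymphomas, and 1 without KO1080 or without KO1134, each of which had met the rule. Genes called lower relative to the chromosome numbered 53 to 1987. Cdkn2c and Cdkn1a have 1 probe and gave no value when 2 were required. Slide as a random block cannot test the difference of tumour types, since slides lie within types; with it 53 were called lower and 84 higher relative to the chromosome, against 597 and 618 without. No paired analysis was possible because the numbers are those of animals, each used once.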
